A study of Homo sapiens with 4 samples.

Results

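Sestrins, PHLDA3, DDIT4 and the tuberous sclerosis genes are brakes on AKT and mTOR signalling, and 7 of them were followed here: PHLDA3, SESN1, SESN2, SESN3, DDIT4, TSC1 and TSC2. They were chosen by symbol, each through its Ensembl identifier, and all 7 were among the 25693 human genes of the count table and passed the filter on low counts. The cells were NGP, a human neuroblastoma line, and single-cell RNA was captured in droplets on the ddSeq device with a kit that reads polyadenylated transcripts from the 3' end. Cells in both groups had been synchronised by serum starvation and were then kept for 24 h either with Nutlin-3, a compound that releases p53 from its inhibitor MDM2, or with ethanol, the control. Each treatment had 2 libraries, one with ERCC spike-in RNA diluted 1000-fold and one with it diluted 10000-fold, and 250 columns of the table, one barcode each, whose names give the treatment but not the library. Each treatment was therefore 1 pool, no difference below has a replicate check, and no p-value was computed.

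The proteins act at successive steps. PHLDA3 is a small pleckstrin-homology protein that occupies the membrane lipids to which AKT must bind in order to be activated. DDIT4, also called REDD1, is a stress-induced protein that favours the TSC1-TSC2 complex, and that complex switches off RHEB, the GTPase that activates mTOR complex 1. Sestrins bind the GATOR2 complex, through which amino acid supply reaches mTOR complex 1, and are also linked to the kinase AMPK. PHLDA3, SESN1 and SESN2 are known p53 targets, and DDIT4 and TSC2 also stand in the list of p53 targets used below. SESN2 and DDIT4 also respond to the stress factor ATF4, DDIT4 responds to hypoxia and glucocorticoids, and SESN3 is known as a target of FOXO factors.

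The pools were of similar depth, with 1301232 human counts with Nutlin-3 and 1342134 with ethanol. Column totals fell into 2 classes, and 113 columns per treatment lay above 4000 counts (large columns) and 137 below (small columns). Of the column names, 219 occurred in both treatments and 31 in only one, in each pool. Counts above 1 per gene and column were uncommon, since 92.2% of the nonzero values in large columns and 97.2% in small columns were equal to 1. How molecular tags were read for the table is not given in the sources used here, and what a count stands for, in every sum, CPM and fold below, depends on it. CDKN1A, a p53 target that shows the response to the drug, stood at 188 counts with Nutlin-3 against 70 with ethanol. All 10 markers of adrenergic neuroblastoma fixed for the line were detected in both pools, with a summed level of 2369 CPM (counts scaled to a common total of human counts) in Nutlin-3 and 2329 CPM in ethanol. Markers of other cell types were low, at 82.3 and 78.9 CPM for 5 fibroblast genes, 5.38 and 5.21 for 4 immune genes, 16.1 and 14.1 for 4 epithelial genes and 1.54 and 0.745 for 3 endothelial genes.

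Of the 7 genes, 4 were higher in the Nutlin-3 pool, and 3 were not past the fold used. PHLDA3 was 6.07-fold higher, SESN2 3.25-fold, SESN1 2.16-fold and DDIT4 1.69-fold. The counts of SESN3, TSC1 and TSC2 were close in both pools. A gene was taken as past the fold when its log2 ratio (the log2 fold change, Nutlin-3 relative to ethanol) was at least 0.5 in size and its 95% counting interval left out 0. Of the 14830 genes tested, 3.86% were past the fold and higher in Nutlin-3, and 2.86% past it and lower, which none (0) of the 7 genes was. Within the large columns alone the same 4 genes were past the fold, where 3.60% of genes were higher and 2.56% lower. Large columns held 1160372 of the 1301232 human counts with Nutlin-3 and 1190571 of the 1342134 with ethanol. Their values could therefore differ little from the full sums and are no separate check. In the small columns 6 of the 7 did not pass the filter and 0 were past the fold, where 3.38% of genes were higher and 2.79% lower. With ERCC counts as library size, which moved the median of all genes to -0.47 and put 1.13% of genes past the fold and higher and 36.1% lower, PHLDA3, SESN1 and SESN2 stayed past the fold, DDIT4 did not, and TSC2 was past it and lower. The intervals treat counts as independent molecules and cover counting error only.

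**Figure D1:**
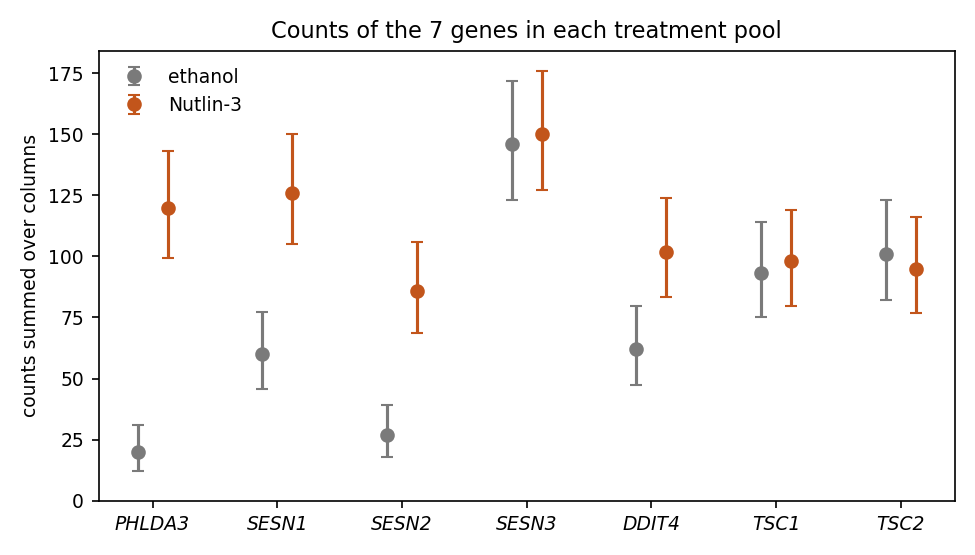
Counts of the 7 genes summed over the 250 columns of each treatment (vertical axis, counts; bars, exact 95% Poisson intervals). The intervals of PHLDA3, SESN1, SESN2 and DDIT4 lie apart between ethanol (grey) and Nutlin-3 (orange), and those of SESN3, TSC1 and TSC2 overlap.

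PHLDA3 (ENSG00000174307, chr1:201464383-201469237 in GRCh38), whose protein acts on AKT, had 120 counts with Nutlin-3 (95% Poisson interval 99.5 to 143) and 20 with ethanol (12.2 to 30.9). This corresponds to 92.3 CPM and 14.9 CPM. Its log2 ratio of 2.60 (95% counting interval 1.94 to 3.39) was number 10 when the 11797 genes averaging 20 CPM or more were ranked. The difference lay in how many columns held the gene. Of the 113 large columns, 103 had at least 1 PHLDA3 count in Nutlin-3 and 19 in ethanol. A second count in one column was seen in 11 large Nutlin-3 columns and in 0 ethanol columns. In the small columns PHLDA3 had 6 counts with Nutlin-3 and 1 with ethanol, a log2 ratio of 2.25 whose interval (-0.32 to 8.25) included 0.

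The 3 sestrins gave different values in these pools. SESN1 (ENSG00000080546, chr6:108986437-109094819) had 126 counts with Nutlin-3 (105 to 150) and 60 with ethanol (45.8 to 77.2), or 96.9 and 44.7 CPM, with a log2 ratio of 1.11 (0.66 to 1.58). SESN2 (ENSG00000130766, chr1:28259527-28282491), whose protein senses leucine, had 86 counts (68.8 to 106) against 27 (17.8 to 39.3), or 66.1 and 20.1 CPM, with a log2 ratio of 1.70 (1.08 to 2.40). SESN3 (ENSG00000149212, chr11:95165513-95232541) had 150 counts (127 to 176) against 146 (123 to 172), or 115 and 109 CPM, with a log2 ratio of 0.08 (-0.25 to 0.42). An antisense gene that overlaps SESN3 over 67029 bases (LNCRNA-IUR, ENSG00000245552) had 17 counts with Nutlin-3 and 29 with ethanol. Whether counting used the strand is not given in the sources used here, so reads of these 2 genes cannot be told apart. The intervals of SESN1 and SESN2 overlapped each other, and neither overlapped that of SESN3. By rank among the same 11797 genes SESN2 was number 26, SESN1 number 77 and SESN3 number 3604. With Nutlin-3 the mean per large column was near 1 for SESN1 (1.03) and SESN3 (1.07), and lower for SESN2 (0.726). The ranks are therefore not read as an order of response.

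Values per column separated the sestrins in another way. SESN1 was present in 108 of 113 large Nutlin-3 columns and 59 of 113 ethanol columns, and SESN2 in 80 and 26. SESN3 was present in 112 large columns of each treatment, and in most of these at exactly 1 count, in 103 Nutlin-3 and 101 ethanol columns. With Nutlin-3, PHLDA3 and SESN1 were also mostly at exactly 1 count, in 92 and 100 large columns. Such values are common in the table: 3482 genes in Nutlin-3 and 3600 in ethanol had a mean of 0.9 to 1.1 per large column. Higher values did occur, as in MDM2, which had at least 2 counts in 106 large Nutlin-3 columns and 69 ethanol columns. How far a value near 1 in nearly every column can reflect a difference between treatments was not tested. In the small columns, where most columns lacked the gene, SESN3 had 29 counts with Nutlin-3 and 22 with ethanol, a log2 ratio of 0.53 with an interval (-0.31 to 1.41) that included 0. SESN1 had 10 small-column counts against 1, a log2 ratio of 2.94 (0.65 to 8.90), and SESN2 had 4 against 1, with 1.72 (-1.20 to 7.76).

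**Figure D2:**
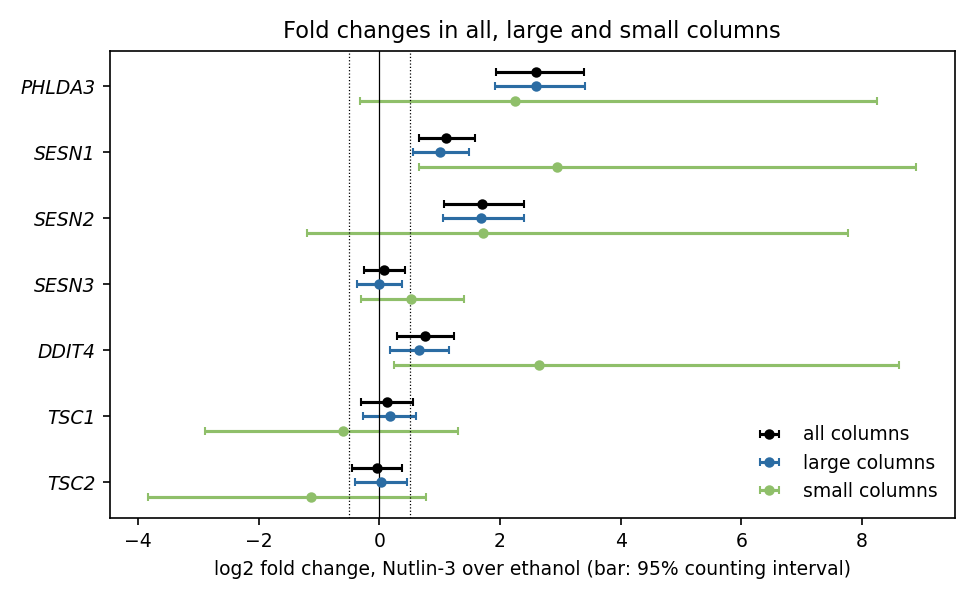
Log2 ratio between Nutlin-3 and ethanol (horizontal axis; bars, 95% counting intervals) for the 7 genes in all columns (black), the 113 large columns (blue) and the 137 small columns (green) per treatment. Dotted lines mark a log2 ratio of 0.5 in either direction. Estimates from all and from large columns nearly coincide, as large columns hold most counts of each pool, and the small columns give wide intervals.

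The promoters of the sestrins are shown because SESN1 has several start sites, of which only 1 carries a match to the p53 consensus near it. RefSeq promoter windows of 300 bases (250 before and 50 after a start site, build GRCh38.p14) were held for 6 of the 7 genes, 9 windows in all, and PHLDA3 was not matched. They were searched on both strands for the p53 consensus decamer, for 2 such decamers with 0 to 13 bases between them, for the ATF4 composite element TGATGNAA, for the FOXO element GTAAACA and for the hypoxia element ACGTG. The 3 start sites of SESN1, on the minus strand, span 85858 bases, and the 2 downstream ones lie 564 bases apart. The most downstream window (chr6:109008939-109009238, minus strand) held 1 decamer, which reads as the consensus on both strands, at chr6:109009028-109009037, 49 to 40 bases before the start. In the SESN1 line below the capitals mark it. A decamer occurs in 6.63% of all 35116 windows and a pair of them in 0.03%, and no (0) window of these genes held a pair. The SESN2 window (chr1:28259268-28259567, plus strand) held no match to any of the 5 motifs, so its line has no capitals.

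SESN1: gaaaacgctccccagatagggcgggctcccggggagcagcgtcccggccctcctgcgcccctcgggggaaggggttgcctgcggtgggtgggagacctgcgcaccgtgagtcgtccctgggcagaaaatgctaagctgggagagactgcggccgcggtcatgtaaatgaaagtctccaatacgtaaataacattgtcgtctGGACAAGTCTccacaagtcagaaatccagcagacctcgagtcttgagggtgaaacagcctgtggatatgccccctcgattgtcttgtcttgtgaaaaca
SESN2: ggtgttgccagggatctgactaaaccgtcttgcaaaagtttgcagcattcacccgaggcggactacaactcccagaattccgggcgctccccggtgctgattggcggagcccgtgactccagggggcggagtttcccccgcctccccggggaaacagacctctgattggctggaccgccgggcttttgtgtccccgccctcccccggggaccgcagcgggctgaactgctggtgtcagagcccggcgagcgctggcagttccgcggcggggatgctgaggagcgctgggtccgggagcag

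Neither of the other SESN1 windows (GC content 72.3% and 75.0%, against 58.0% in the one shown) held a match, nor did that of SESN3, the most AT-rich of the set with a GC content of 45.0% against a median of 58.7% over all windows. The SESN2 window had a GC content of 67.0%. Counts from a 3' kit do not tell from which SESN1 start site a transcript came. A match is a description of the letters and not a measured site, and the windows without one say nothing of binding elsewhere.

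DDIT4 (ENSG00000168209, chr10:72273920-72276036), which links stress signals to the TSC complex, had 102 counts with Nutlin-3 (83.2 to 124) and 62 with ethanol (47.5 to 79.5), or 78.4 and 46.2 CPM. Its log2 ratio was 0.76 (0.29 to 1.24), the smallest of the 4 genes past the fold, and number 213 of the 11797 ranked. It was present in 91 of 113 large columns in Nutlin-3 and 60 in ethanol. In the small columns it had 8 counts against 1, a log2 ratio of 2.64 (0.24 to 8.61). An antisense gene that overlaps it over 1066 bases (ENSG00000269926) had 6 counts with Nutlin-3 and 0 with ethanol. Whether counting used the strand is not given in the sources used here, so reads of this pair cannot be told apart. Scaled to ERCC counts the DDIT4 value was 0.29 (-0.17 to 0.77).

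The DDIT4 window is shown for its match to the hypoxia element, a signal to which this gene is known to respond. The window (chr10:72273674-72273973, plus strand) held 1 ACGTG, marked in capitals, 125 to 121 bases before the start, and no match to the other 4 motifs. The element is common, at 21.4% of all windows. One of the TSC2 windows (chr16:2047735-2048034, plus strand) held it too, 114 to 109 bases before the start. There the letters CACGTG read the same on both strands, so the 2 overlapping matches are 1 stretch. The window also held the ATF4 composite element, 110 to 103 bases before the start, which occurs in 3.62% of all windows. The other TSC2 window and that of TSC1 held no match.

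DDIT4: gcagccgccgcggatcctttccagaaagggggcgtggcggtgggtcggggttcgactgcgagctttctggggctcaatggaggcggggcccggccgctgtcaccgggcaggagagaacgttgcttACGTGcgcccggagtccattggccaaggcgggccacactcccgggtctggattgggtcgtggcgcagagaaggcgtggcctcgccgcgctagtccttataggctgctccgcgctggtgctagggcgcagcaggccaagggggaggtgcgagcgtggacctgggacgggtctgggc

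TSC1 and TSC2 encode hamartin and tuberin, the core subunits of the complex that DDIT4 favours. TSC1 (ENSG00000165699, chr9:132891348-132946874) had 98 counts with Nutlin-3 (79.6 to 119) and 93 with ethanol (75.1 to 114), or 75.3 and 69.3 CPM, with a log2 ratio of 0.12 (-0.30 to 0.55). TSC2 (ENSG00000103197, chr16:2047465-2089487) had 95 (76.9 to 116) and 101 (82.3 to 123), or 73.0 and 75.2 CPM, with a log2 ratio of -0.04 (-0.46 to 0.38). Both intervals included 0, and in fold terms they reached from 0.811 to 1.46 for TSC1 and from 0.726 to 1.30 for TSC2. TSC1 was present in 92 of 113 large Nutlin-3 columns and 84 ethanol columns, and TSC2 in 91 of each. In small columns TSC1 had 4 counts in Nutlin-3 against 7, and TSC2 3 against 8, with intervals of the log2 ratio from -2.89 to 1.31 and from -3.83 to 0.78. TSC2 overlaps PKD1 over 778 bases and NTHL1 over 402 bases, both on the opposite strand, with 82 and 122 counts in Nutlin-3 and 87 and 135 in ethanol.

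**Figure D3:**
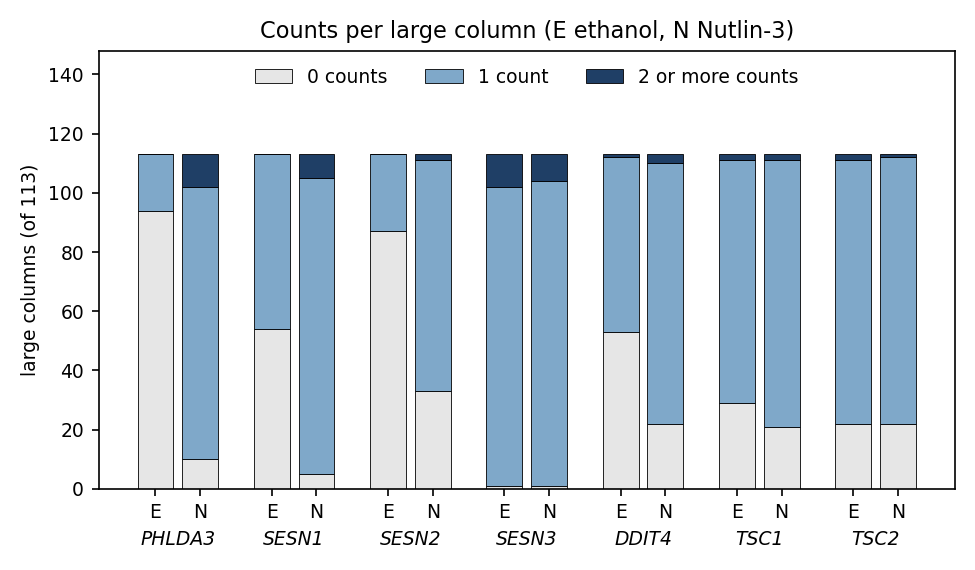
Number of large columns (vertical axis, of 113 per treatment) in which each gene had 0 (light), 1 (blue) or at least 2 counts (dark), for ethanol (E) and Nutlin-3 (N). PHLDA3 was at 0 in 94 ethanol and 10 Nutlin-3 columns, while SESN3 was at 0 in 1 column of each and TSC2 at 0 in 22 of each.

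Because large columns seldom held more than 1 count of these genes, a rate of detection was set beside the sums. It is the negative natural logarithm of the share of large columns at 0, and it would equal the mean count if counts were Poisson. This was not the case, since in Nutlin-3 the rate of every gene of the set lay above its mean per large column. That mean was 1.01 for PHLDA3, 1.03 for SESN1, 0.726 for SESN2 and 0.832 for DDIT4. Ratios of rates are therefore not read as folds of counts. The choice was made after the values per column had been seen. PHLDA3 had a rate of 2.42 in Nutlin-3 (95% exact binomial interval, transformed, 1.85 to 3.14) and 0.184 in ethanol (0.110 to 0.288), a 13.2-fold difference where the sums over all columns gave 6.07. SESN1 had rates of 3.12 (2.30 to 4.23) and 0.738 (0.555 to 0.960), a ratio of 4.22, and SESN2 1.23 (0.954 to 1.56) and 0.261 (0.170 to 0.384), a ratio of 4.71. By this measure the ratio of SESN1 was close to that of SESN2, whereas by sums it was 2.16 against 3.25. DDIT4 had rates of 1.64 (1.27 to 2.07) and 0.757 (0.571 to 0.982), a ratio of 2.16. For TSC1 the ratio was 1.24 and for TSC2 and SESN3 it was 1.00, and SESN3 was at 0 in only 1 column of each treatment, which leaves its rate between 3.03 and 8.40 in both. Over the 13085 genes with a rate in both treatments the median log2 ratio was -0.11.

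**Figure D4:**
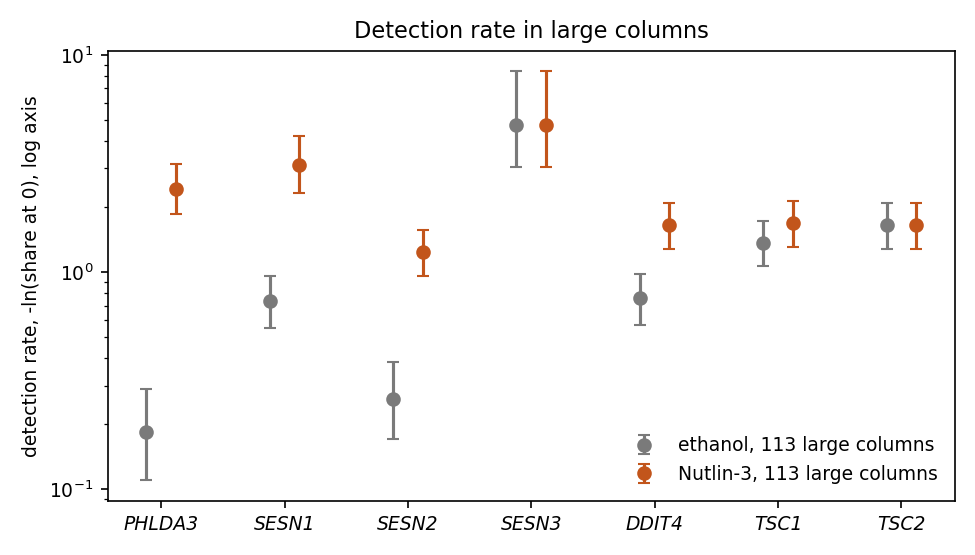
Detection rate in the 113 large columns of each treatment (vertical log axis, negative natural logarithm of the share of columns at 0; bars, transformed exact 95% binomial intervals). The intervals of ethanol (grey) and Nutlin-3 (orange) lie apart for PHLDA3, SESN1, SESN2 and DDIT4.

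At a common depth the genes were sparse. After each column had been thinned to 700 counts, 187 Nutlin-3 and 194 ethanol columns remained, 63 and 56 being too shallow. PHLDA3 was then seen in 6.95% of Nutlin-3 columns (exact binomial interval 3.75 to 11.6) and 1.03% of ethanol columns (0.125 to 3.67). In this draw these intervals lay just apart. SESN1 was seen in 6.42% (3.36 to 10.9) and 1.55% (0.320 to 4.45), and SESN2 in 4.28% (1.86 to 8.26) and 0.515% (0.013 to 2.84), with overlapping intervals. The shares of SESN3, at 9.63% and 10.8%, DDIT4, at 3.74% and 4.12%, TSC1, at 3.21% and 5.67%, and TSC2, at 3.21% and 2.58%, also overlapped, and no order is read from them. For PHLDA3 the intervals overlapped at 350 counts (0.474 to 4.37 in Nutlin-3, 0.0105 to 2.29 in ethanol). They also overlapped in small columns thinned to 700 counts (0.844 to 11.4 and 0 to 4.45), and lay apart in large ones (4.96 to 16.8 and 0 to 3.21). All these intervals treat columns as independent, and columns are not replicates of a treatment. At 700 counts a thinned column held on average 0.374 of the 7 genes in Nutlin-3 and 0.263 in ethanol. Without thinning, at median depths of 2010 and 2287 counts, PHLDA3 was in 43.6% of 250 Nutlin-3 columns and 8.0% of 250 ethanol columns, SESN1 in 47.2% and 24.0%, and SESN2 in 33.6% and 10.8%. The unthinned shares were 39.2% and 24.4% for DDIT4, 56.4% and 53.2% for SESN3, 38.4% and 36.4% for TSC1, and 37.6% and 39.6% for TSC2. How often free RNA alone gives a count could not be measured, since there is no second cell type.

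By a fixed rule, the 5 genes nearest to PHLDA3 and to SESN1 were looked up among genes averaging 50 CPM or more, by Euclidean distance over the log2 ratios in large and in small columns. For PHLDA3 these were EDA2R, a receptor of the TNF receptor family, at a distance of 1.31, and RAB40B, INKA2, RRM2B and FDXR at 1.39 to 1.57. For SESN1 they were RRM2B, a p53-induced ribonucleotide reductase subunit, SPEG, MMP2, DDIT4 and PIDD1, at 0.33 to 0.50. In small columns PHLDA3, SESN1 and each of these genes had at most 13 counts with Nutlin-3 and at most 1 with ethanol, so the distances carry a wide counting error and no nearness or order is read from them.

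The rest of the pathway was read from 13 gene lists. Counted once each and without the 7 genes, 144 list genes had a row and 133 of them passed the filter, of which 6 were past the fold and higher in Nutlin-3 and 4 past it and lower. These shares of 4.51% and 3.01% lay near the 3.86% and 2.86% of all genes tested. Scaled to ERCC counts, 1 was higher (0.752%) and 52 were lower (39.1%), near the 1.13% and 36.1% of all genes under that scaling. The median log2 ratio of the 133 was 0.01, that of all 14830 genes 0.00. The counts of single lists below stand beside the same 3.86% and 2.86% of all genes.

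Other p53 targets on the axis from insulin-like growth factor to mTOR differed among themselves. Their list also held 5 of the 7 genes, PHLDA3, SESN1, SESN2, DDIT4 and TSC2, which are left out here. Of 6, 2 were past the fold, IGFBP3, which binds insulin-like growth factors, with 88 counts against 47 in ethanol and a log2 ratio of 0.94 (0.42 to 1.49), and TIGAR, a fructose bisphosphatase, with 112 against 62 and 0.89 (0.44 to 1.37). The AMPK subunits PRKAB1 and PRKAB2 had values of 0.12 (-0.35 to 0.60) and 0.30 (-0.07 to 0.68). The phosphatase gene PPM1D had 0.10 (-0.27 to 0.48). The median of the 6 was 0.21.

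Upstream, among PI3K and AKT genes 1 of 13 was past the fold and higher and 1 lower, with a median of -0.02. PIK3R2, a regulatory subunit of PI3K, had 82 counts against 57 and a log2 ratio of 0.57 (0.07 to 1.08), and IRS1, the adaptor of the insulin receptor, had 16 against 43 and -1.35 (-2.31 to -0.52). Among brakes on PI3K and AKT other than PHLDA3, 2 of 13 were past the fold, both higher, with a median of -0.04. INPP5D, the lipid phosphatase SHIP1, had 37 counts with Nutlin-3 and 1 with ethanol, a log2 ratio of 4.69 with a wide counting interval (2.69 to 10.60). Of these counts, 36 and 1 lay in large columns. PIK3IP1, an inhibitor of PI3K, had 58 against 37 and 0.69 (0.08 to 1.33). PHLDA1, a relative of PHLDA3, had 108 against 128 counts and -0.20 (-0.58 to 0.18), and PHLDA2 had 1 and 3 counts, for which no fold is given.

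Downstream of these, 1 gene of the 6 lists around mTOR itself was past the fold. Of 10 mTOR complex subunits it was DEPTOR, an inhibitor of both mTOR complexes, with 31 counts against 13 and a log2 ratio of 1.27 (0.32 to 2.36), and the list median was 0.05. None (0) was past the fold among 13 genes of the GATOR and KICSTOR complexes, to which sestrins signal, with a median of -0.02 and a range from -0.53 to 0.27. The same held for 13 genes of the Rag, Ragulator and folliculin group (median 0.02, from -0.19 to 0.47) and for 6 partners of the TSC complex (median -0.15, from -0.46 to 0.03). It also held for 10 AMPK and LKB1 genes (median 0.06, from -0.17 to 0.30) and for 13 effectors of mTOR complex 1 (median 0.01, from -0.28 to 1.27). Among genes averaging 50 CPM or more the highest values of the first of these 5 lists were NPRL2 at 0.27, RRAGB at 0.25 and GSK3B at 0.03. They were PRKAB2 and STRADA, both at 0.30, for AMPK and LKB1 genes and PDCD4 at 0.29 for the effectors. The lowest of the last 4 lists at that level were RRAGC at -0.19, RHEBL1 at -0.46, PRKAG2 at -0.17 and EIF4EBP1 at -0.28. Some genes below that level lay further out, in both directions, and those named here were chosen after their values were seen. TFEB, a transcription factor of lysosomal genes, had 17 counts against 7 and 1.27 (-0.02 to 2.84), and FLCN, which encodes folliculin, had 66 against 49 and 0.47 (-0.08 to 1.04). In the GATOR and KICSTOR list WDR24 had 40 against 60 and -0.53 (-1.15 to 0.06), and DEPDC5 had 46 against 59 and -0.31 (-0.90 to 0.27). Of the 65 genes tested in the 6 lists, 27 had a count in at least 90% of large columns in both pools, as SESN3 did, and log2 ratios of all genes averaging 50 CPM or more spanned less (central 95% from -0.37 to 0.37) than those of all genes tested (-0.92 to 1.12). A value inside the fold is therefore no measure of stability for such genes.

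**Figure D5:**
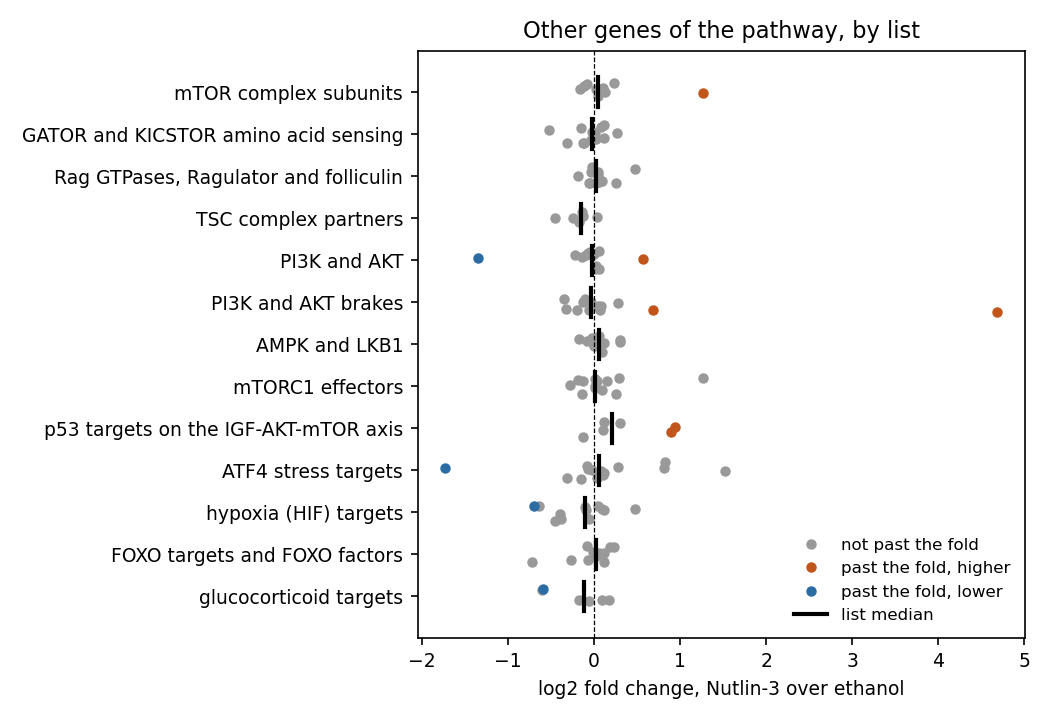
Log2 ratio between Nutlin-3 and ethanol (horizontal axis) for each tested gene of the 13 lists without the 7 genes, 1 point per gene, with thick lines at the list medians and a dashed line at the median of all genes. Orange points are past the fold and higher, blue points past it and lower, and the list medians lie between -0.15 and 0.21.

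Other inputs known for these genes were read in the same way, since SESN2, DDIT4 and SESN3 also answer to signals other than p53. Of 14 targets of ATF4, 0 were past the fold and higher and 1 lower, SLC7A11, a subunit of the cystine transporter, with 18 counts against 63 and a log2 ratio of -1.73 (-2.60 to -0.99). The list median was 0.06, and ATF4 itself had -0.08 (-0.37 to 0.21). Of 12 hypoxia targets, 0 were higher and ANKRD37 was lower, with 45 counts against 76 and -0.70 (-1.28 to -0.16), and the median was -0.10. Among 11 FOXO factors and targets 0 were past the fold, with a median of 0.02 and a range from -0.72 to 0.23, and among those averaging 50 CPM or more KLF6 was lowest at -0.27 and TXNIP highest at 0.18. Among 6 glucocorticoid targets, 0 were higher and NR3C1, the receptor itself, was lower with 46 counts against 72 and -0.59 (-1.17 to -0.05), and the median was -0.12. Of all genes tested, 3.86% were past the fold and higher and 2.86% lower. Lists of 6 to 14 genes are too short to tell 0 or 1 from these shares. Whether these signals were at work was not tested.

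Columns whose name occurred in both treatments held 98.2% of human counts with Nutlin-3 and 98.5% with ethanol, so values from these columns alone could differ little from those above. Their log2 ratios were 2.59 for PHLDA3, 1.09 for SESN1, 1.76 for SESN2, 0.07 for SESN3, 0.76 for DDIT4, 0.14 for TSC1 and -0.02 for TSC2. The 31 columns per treatment with a name of their own held 23060 human counts with Nutlin-3 and 19805 with ethanol, and too few of these genes for a fold. There PHLDA3 had 1 and 0 counts, SESN1 2 and 0, SESN2 0 and 1, DDIT4 0 and 0, TSC1 and TSC2 0 and 1 each, and SESN3 4 and 2, with an interval of its log2 ratio from -1.96 to 4.31.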

How the data were processed

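The values the authors deposited are raw counts, whole numbers for each gene in each barcode column. Libraries were made with the SureCell WTA 3' kit on the ddSeq device, per the labels' protocols. Not given in the sources used here are aligner, genome build, annotation, reading of barcodes and molecular tags, and column filters. The word treated in a column name was read as Nutlin-3 and untreated as ethanol, the other treatment in the labels, and 0 columns of per-sample values were left unused.

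For each treatment, the 250 columns were added up, leaving ERCC rows out. Scaling used the TMM factors of edgeR 4.0.16 in R 4.3.3 (0.9995 for Nutlin-3, 1.0005 for ethanol), and the edgeR filter with a minimum of 10 kept 14830 genes. Log2 fold changes had 0.5 counts added to each sum, and their intervals came from the exact binomial (Clopper-Pearson) interval of the Nutlin-3 share. The fold and interval code was tested on simulated data. Symbols came from a table of Ensembl identifiers, gene positions from GENCODE release 29 (GRCh38), which need not be the authors' build, and promoters from RefSeq (GRCh38.p14). Python 3.11.15, numpy 2.4.6 and scipy 1.17.1 were used.

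The 7 genes, the lists and the split at 4000 counts were chosen with earlier results of these data known. Of each list were named the genes past the fold, at most 3 per direction, or, where there was none, the highest and the lowest with a mean of at least 50 CPM. ATF4, PHLDA1, PHLDA2, TFEB, FLCN, WDR24, DEPDC5 and the other p53 targets were named besides. Some genes that this rule names are not reported here. Doublets were not called, because a single line was used. Alternatives were DESeq2 1.42.0 size factors, ERCC counts as library size, no filter, 1 count added, large or small columns, columns by depth or name, thinning, and the rate of detection.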

Additional observations from a re-analysis of the deposited data

How the results depend on the processing

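No paired analysis was possible because column names give no library, so that a treatment is 1 pool. Tests by edgeR and DESeq2, with or without a replicate block, and fits that leave out a library could not be fitted either. Of 71 fold changes of the 7 genes under 11 alternatives, 58 stayed within the counting interval of the first value, 13 left it, and 0 of the genes past the fold changed sign. Of the 13, 5 came from ERCC scaling, 5 from small columns, 2 from the rate of detection and 1 from columns with a name in 1 treatment. The other alternatives moved none. They change the sums or the scaling little, so the number that stayed is no measure of stability.

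Scaling to ERCC counts (4007 in Nutlin-3, 2989 in ethanol) moved the median of all genes to -0.47. It left 3 of the 7 genes past the fold and higher and put 1 past it and lower, TSC2, at -0.51 (-0.93 to -0.09), with SESN3 at -0.38 (-0.72 to -0.05). Of 133 pathway genes 1 was then past the fold and higher and 52 lower (39.1%, beside 36.1% of all genes), against 6 and 4. Each pool joins 2 dilutions in unknown proportion, so this scaling and the mixture of libraries cannot be told apart.

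In small columns alone 0 of the 7 genes were past the fold and higher, since 6 of them did not pass the filter there, and of 56 pathway genes tested there 3 were higher and 2 lower, beside 3.38% and 2.79% of all genes. The average number of the 7 genes per column was 2.96 in Nutlin-3 and 1.96 in ethanol without thinning and 0.182 and 0.116 at 350 counts. Thinned to 700 counts, ethanol columns held 0.263 when both classes were used and 0.123 when only small columns were, where Nutlin-3 columns held 0.324. Columns were thinned anew for each setting, so part of such a difference can come from the draw, and the cause was not tested.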
